A study of Rattus norvegicus with 10 samples.

Results

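Luminal and myoepithelial cells form the paired layers of the mammary gland, and this account follows 10 genes that mark them in rat milk fat on postnatal day 10 (P10). Krt7, Krt8, Krt18, Krt19, Epcam and Cdh1 mark the luminal layer, and Krt5, Krt14, Acta2 and Myh11 mark the myoepithelial layer. Each was looked up by its symbol in the deposited table, and 9 of the 10 were found among its 16748 genes. Krt7 had no row under its symbol and was not analysed here, which left 5 luminal and 4 myoepithelial genes. All 9 varied between libraries and were kept.

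The luminal cell lines the alveoli and ducts and, in lactation, makes and secretes milk. Its filaments are built of the simple keratins, which assemble only as pairs of a type I and a type II chain, and its neighbours are held to it by E-cadherin and EpCAM. The myoepithelial cell lies outside the luminal layer and contracts in response to oxytocin to eject milk. It carries the basal keratin pair Krt5 and Krt14 together with the smooth muscle actin and myosin of a contractile cell. Milk fat globules leave the luminal cell wrapped in its membrane and can trap some of its cytoplasm, whereas the myoepithelial cell does not touch the milk.

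The animals were wild type Sprague-Dawley rat dams. SD dams lived in standard laboratory cages, and EE (environmental enrichment) dams lived in large multilevel cages with ramps and changing toys. Each group gave 5 libraries, which the labels call biological replicates. All dams of both groups were separated from their litters, anesthetized with isoflurane and given oxytocin before milking, and RNA came from the washed fat layer. In such a sample fewer cells or globules from a cell type and less RNA from each of them cannot be told apart.

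The table holds log2 values after a variance-stabilizing transformation, and inverting it gave normalized counts, which are the counts in this text unless log2 is stated. Depth was estimated at 43579163 to 69857041 reads per library. The authors' own comparison matched a set without SD replicate 4, so the difference of each marker is given over all 10 libraries and again without that library. Casein genes took 57.0% to 61.2% of counts in SD libraries and 40.4% to 61.0% in EE libraries, with the lowest shares in EE replicates 5 (40.4%) and 3 (44.2%). Of the markers of other cell types, Pdgfrb, Kcnj8 and Rgs5 of pericytes, Dcn, Lum, Thy1 and Col3a1 of fibroblasts, Cldn5 and Emcn of endothelium, Plin1 of adipocytes and Krt1, Krt2, Krt77 and Ivl of skin were listed at 0 reads in all 10 libraries. Other genes of the same lists had reads, led by Fbln1 and Fn1 (fibroblasts), Lpl and Cfd (adipocytes, where Lpl is also a gene of the lactating luminal cell), Pecam1 and Vwf (endothelium) and Krt10 (skin), with means of 2188, 201, 88750, 240.2, 31.7, 30.1 and 92.3. Summed counts of the 18 immune markers with reads ranged from 1292 to 4515 in SD and from 1279 to 3368 in EE libraries. Single genes of these lists were lower in EE by the wider rule defined below, beside 2.56% of all genes. Cd14 had 239 to 684 normalized counts in SD and 174 to 209 in EE libraries (-0.99, SE 0.20, and -0.97, SE 0.21, without SD replicate 4). It was the only 1 of the 18 immune genes to pass in either set. Of the 18, 6 were higher and 12 lower in EE (median log2 difference -0.014), beside 52% of all genes lower. Without SD replicate 4, 11 were higher and 7 lower (median 0.03), beside 50.3% of all genes lower. Cfd differed by -0.78 (SE 0.24, and -0.64, SE 0.24) and Fbln1 by -1.48 (SE 0.66, and -0.93, SE 0.53, where it no longer passed). Of 5 red blood cell genes with reads, 5 were higher in EE, where 52% of all genes were lower. By the wider rule 1 of them was higher, beside 1.02% of all genes. Without SD replicate 4, 4 were higher and 1 lower, and 0 passed it. The part of such cells in the marker values was not tested.

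The luminal label held in these data and the myoepithelial label held only in part. In every library, Krt8, Krt18, Epcam and Cdh1 each had at least 1741 estimated reads and Krt19 at least 175. Krt5 had 0 to 62 estimated reads per library, Krt14 had 7 to 75 and Myh11 had 18 to 92. Acta2 was the exception among the myoepithelial genes, with 892 to 3382. Other genes of the contractile cell were uneven. Oxtr, the oxytocin receptor, reached at most 10.5 normalized counts in any library and averaged 2.15 in SD and 5.90 in EE libraries. Smtn, another such gene, averaged 25.6 in SD and 32.7 in EE libraries. Myl9, Cnn1 and Actg2 averaged 28.4, 27.5 and 22.0 in SD and 9.16, 11.6 and 13.2 in EE libraries. Each of these genes had a limma unadjusted p of at least 0.074, and they were named after their values were seen. Mylk, Cald1 and Tpm1, which other cells also express, averaged 472, 419 and 4221 in SD and 419, 309 and 3707 in EE libraries. Gene lengths were not used, so these levels are not ranked between genes.

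None of the 9 markers differed between housing groups at an adjusted p of 0.05 (limma, Benjamini-Hochberg adjusted over 12992 genes), and neither did any other gene in that fit (0%), while 961 genes (7.4%) had an unadjusted p under 0.05. By the study's wider rule, an unadjusted p under 0.05 with a fold change above 1.3, 3 of the 9 were called, beside 3.58% of all genes. Acta2 was higher in EE, beside 1.02% of genes called higher, and Epcam and Myh11 were lower, beside 2.56% called lower. Without SD replicate 4, Acta2 and Myh11 were called, beside 4.59% of genes (1.52% higher and 3.06% lower), and Epcam was not, and 1 gene of 12955 (0.00772%) passed the adjusted threshold, which was no marker. The median log2 difference of the 9, EE minus SD, was -0.17 beside -0.0087 over all genes, and without SD replicate 4 it was 0.09 beside -0.0016.

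**Figure D1:**
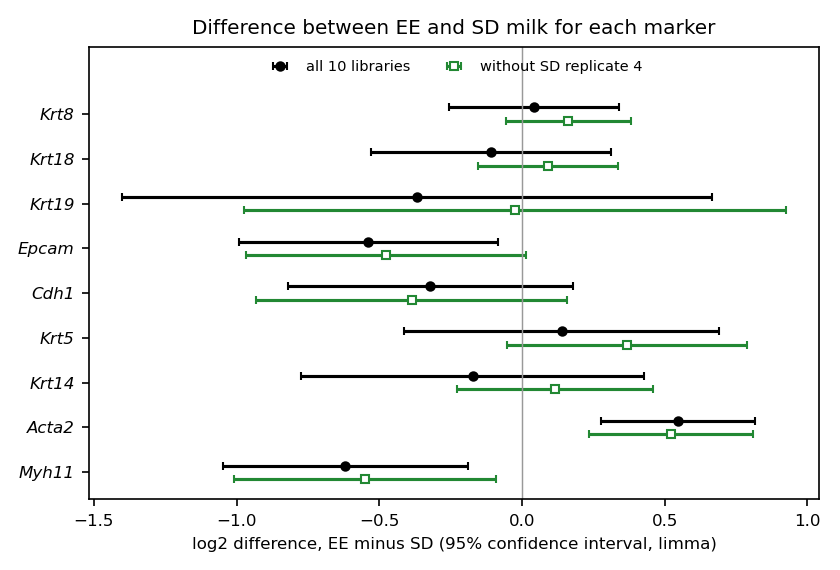
Log2 difference between EE and SD libraries for each marker (x axis, EE minus SD), with 95% confidence intervals from limma, over all 10 libraries (filled circles) and without SD replicate 4 (open squares). The interval of Acta2 lies above 0 and that of Myh11 below 0 in both sets, that of Epcam lies below 0 only over all 10 libraries, and the other 6 include 0 in both.

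Krt8 and Krt18 encode the type II and type I keratins that pair in the filaments of simple epithelium. Krt8 had 6006, 5497, 7323, 9741 and 7044 normalized counts in SD replicates 1 to 5 and 6548, 7993, 7004, 6972 and 7555 in EE replicates 1 to 5. SD replicate 4 was the highest of the 10 libraries and the EE libraries lay within the SD range. The mean was 7122 ± 1643 (SD, n = 5) in SD and 7214 ± 563 (SD, n = 5) in EE libraries, a log2 difference of 0.04 (SE 0.14, limma adjusted p = 0.958). Its 95% confidence interval ran from -0.25 to 0.34. The SD mean without replicate 4 was 6468 ± 860.1 (SD, n = 4) and the difference was 0.16 (SE 0.10, limma adjusted p = 0.600).

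Krt18 had 5303, 4851, 4707, 10624 and 6414 normalized counts in SD replicates 1 to 5. In EE replicates 1 to 5 it had 5198, 6525, 5443, 4998 and 6113. SD replicate 4 again stood above all others, and the remaining 9 libraries of both groups overlapped. The means were 6380 ± 2466 in SD and 5655 ± 643 in EE libraries (SD, n = 5 each), and the log2 difference was -0.11 (SE 0.19, limma adjusted p = 0.915). The difference turned to 0.09 (SE 0.11, limma adjusted p = 0.806) without SD replicate 4, with an interval from -0.15 to 0.33.

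**Figure D2:**
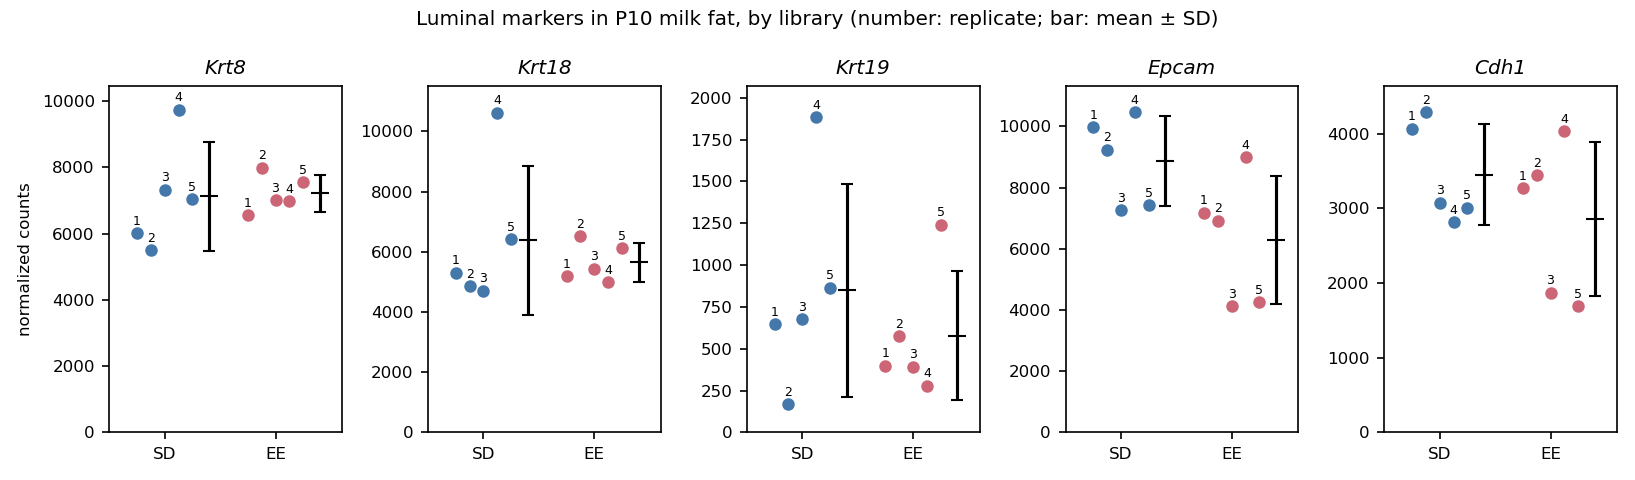
Normalized counts (y axis, from 0, a scale for each gene) of the 5 luminal markers in the 5 SD (blue) and 5 EE (red) libraries, numbered by replicate, with the mean and SD of each group in black. SD replicate 4 is the highest library for Krt8, Krt18, Krt19 and Epcam, and EE replicates 3 and 5 are the lowest for Epcam and Cdh1.

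The keratin partners varied together across the 10 libraries, with a Pearson r of 0.82 (permutation p = 0.00513, adjusted p = 0.0103 over 4 partner pairs) and a Spearman rho of 0.67 (permutation p = 0.0389, adjusted p = 0.156). Without SD replicates 2 and 4, the libraries farthest from the median of Krt8, r was 0.46, so much of the relation rested on them. Other keratin pairs varied together to a like degree, with r of 0.82 for Krt18 and Krt14, 0.77 for Krt8 and Krt19 and 0.75 for Krt18 and Krt5. Without SD replicate 4 alone these were 0.17, 0.60 and 0.46, and r of Krt8 and Krt18 was 0.57. The ratio of Krt18 to Krt8 counts ranged from 0.643 to 1.09 in SD libraries and from 0.717 to 0.816 in EE libraries, and the 1.09 was that of SD replicate 4. In the RefSeq annotation of the rat assembly GRCr8 the genes lie on chromosome 7 with a single annotated lncRNA between them. Their promoters are shown because these filament partners are neighbours. The 250 bases before each RefSeq start, on the gene's own strand, are given in lower case, with capitals for matches to GGGCGG (a GC box), CACCTG (an E-box) or TATAAA on either strand. The windows are chr7:135010340-135010589 (minus strand) for Krt8 and chr7:135035918-135036167 (plus strand) for Krt18.
Krt8: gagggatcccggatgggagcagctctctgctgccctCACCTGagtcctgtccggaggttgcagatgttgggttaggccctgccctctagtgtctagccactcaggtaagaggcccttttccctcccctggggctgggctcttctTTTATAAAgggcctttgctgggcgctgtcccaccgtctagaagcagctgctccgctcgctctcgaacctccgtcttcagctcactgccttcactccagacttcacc
Krt18: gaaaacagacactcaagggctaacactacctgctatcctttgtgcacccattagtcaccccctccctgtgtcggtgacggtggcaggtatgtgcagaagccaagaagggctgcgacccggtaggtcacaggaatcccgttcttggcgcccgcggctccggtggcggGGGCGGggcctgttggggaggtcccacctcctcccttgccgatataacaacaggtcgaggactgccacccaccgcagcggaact
The Krt8 window held 1 CACCTG and 2 TATAAA matches, which overlap on opposite strands, and the Krt18 window held 1 GGGCGG. Over 33469 RefSeq promoters of the same length, GGGCGG was found in 30.5%, CACCTG in 15.9% and TATAAA in 12.9%. The matches are descriptions of sequence and were set against no binding data.

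Krt19, the small type I keratin of ducts and other simple epithelia, was the most variable luminal marker by its coefficient of variation (72.2% over the 10 libraries). It had 646, 171, 675, 1886 and 865 normalized counts in SD replicates 1 to 5 and 399, 577, 394, 279.8 and 1241 in EE replicates 1 to 5. SD replicate 4 was highest, EE replicate 5 came next, and the lowest library was also an SD library. The mean of 848 ± 634 (SD, n = 5) in SD and 578 ± 386 (SD, n = 5) in EE libraries gave a log2 difference of -0.37 (SE 0.47, limma adjusted p = 0.897). The interval, -1.40 to 0.67, was the widest of the 9 markers. Leaving out SD replicate 4 gave -0.02 (SE 0.43, limma adjusted p = 0.986).

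Epcam, which encodes the epithelial cell adhesion molecule, showed the largest difference among the luminal markers. It had 9981, 9235, 7272, 10465 and 7421 normalized counts in SD replicates 1 to 5 and 7180.3, 6916, 4122, 9005 and 4262 in EE replicates 1 to 5. EE replicates 3 and 5 were lowest and EE replicate 4 lay among the SD libraries, so the groups overlapped, although all 5 EE libraries were below the SD median. The means were 8875 ± 1464 in SD and 6297 ± 2084 in EE libraries (SD, n = 5 each). The log2 difference was -0.54 (SE 0.21, 95% confidence interval -0.99 to -0.08, limma p = 0.0238, adjusted p = 0.632), and the two-sided exact permutation test gave p = 0.0397, where the smallest p that 5 against 5 libraries allow is 0.00794. Without SD replicate 4 it was -0.48 (SE 0.22, limma p = 0.0563, adjusted p = 0.490, exact p = 0.103). The interval then reached from -0.97 to 0.02.

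The Epcam promoter is shown because Epcam was the luminal marker that passed the wider rule, as the 250 bases before its RefSeq start (chr6:12649679-12649928, minus strand, GRCr8) with capitals as above.
Epcam: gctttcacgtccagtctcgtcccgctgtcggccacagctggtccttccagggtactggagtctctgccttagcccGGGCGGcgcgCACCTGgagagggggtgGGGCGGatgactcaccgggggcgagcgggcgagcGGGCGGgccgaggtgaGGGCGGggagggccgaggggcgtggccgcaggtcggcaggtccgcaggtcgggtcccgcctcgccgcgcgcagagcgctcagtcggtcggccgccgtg
It held 4 GGGCGG matches and 1 CACCTG.

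Cdh1 encodes E-cadherin, the calcium-dependent adhesion protein of epithelial adherens junctions. It had 4064, 4285, 3073, 2813 and 3007 normalized counts in SD replicates 1 to 5. In EE replicates 1 to 5 it had 3266, 3443, 1870.2, 4034 and 1688. As for Epcam, EE replicates 5 and 3 were the lowest of the 10 libraries, but the other 3 EE libraries lay inside the SD range. The means of 3449 ± 674 in SD and 2860.1 ± 1029 in EE libraries (SD, n = 5 each) differed by -0.32 on the log2 scale (SE 0.23, limma adjusted p = 0.793). Leaving out SD replicate 4 gave -0.39 (SE 0.25, limma adjusted p = 0.615). Cdh1 did not share the high value of SD replicate 4, where it ranked 8th of the 10 libraries.

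Epcam and Cdh1 were correlated over the 10 libraries (Pearson r 0.86, permutation p = 0.00496, adjusted p = 0.0103 over 4 pairs), with a Spearman rho of 0.52 (permutation p = 0.133, adjusted p = 0.265). Without EE replicates 3 and 5, r was 0.32. That set still held SD replicate 4, which ranked 1st of the 10 libraries for Epcam and 8th for Cdh1. Without SD replicate 4 alone r was 0.97, so its size depended on which libraries were kept.

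The low values of Epcam and Cdh1 fell in the libraries with the lowest casein share. Over the 10 libraries Epcam followed the casein share with a Pearson r of 0.97 (permutation p = 8e-05, adjusted p = 0.00072 over 9 markers) and a Spearman rho of 0.93 (permutation p = 0.00028, adjusted p = 0.00252). Without EE replicates 3 and 5, the libraries farthest from the median casein share, r was still 0.91 over 8 libraries, and after subtraction of each group's mean it was 0.95. For Cdh1 the Pearson r was 0.90 (permutation p = 0.00275, adjusted p = 0.0124) and rho was 0.64 (permutation p = 0.0547, adjusted p = 0.246). Without the same libraries r was 0.42. That set still held SD replicate 4, with a casein share of 60.4% and Cdh1 ranked 8th of the 10 libraries, so the size of r depended on the libraries kept. For the other 7 markers r lay between -0.36 and 0.32, with adjusted permutation p of at least 0.835. Krt8, a marker of the same cell layer, had an r of -0.15. With the casein share as a covariate in limma the Epcam difference was -0.03 (SE 0.11, adjusted p = 0.966) and that of Cdh1 was 0.22 (SE 0.14, adjusted p = 0.780). Without EE replicates 3 and 5 the differences were -0.20 and 0.07, respectively. These correlations were chosen after the values were seen. Casein share and marker values come from the same libraries, and the part of the casein share in the difference was not tested beyond these fits.

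**Figure D3:**
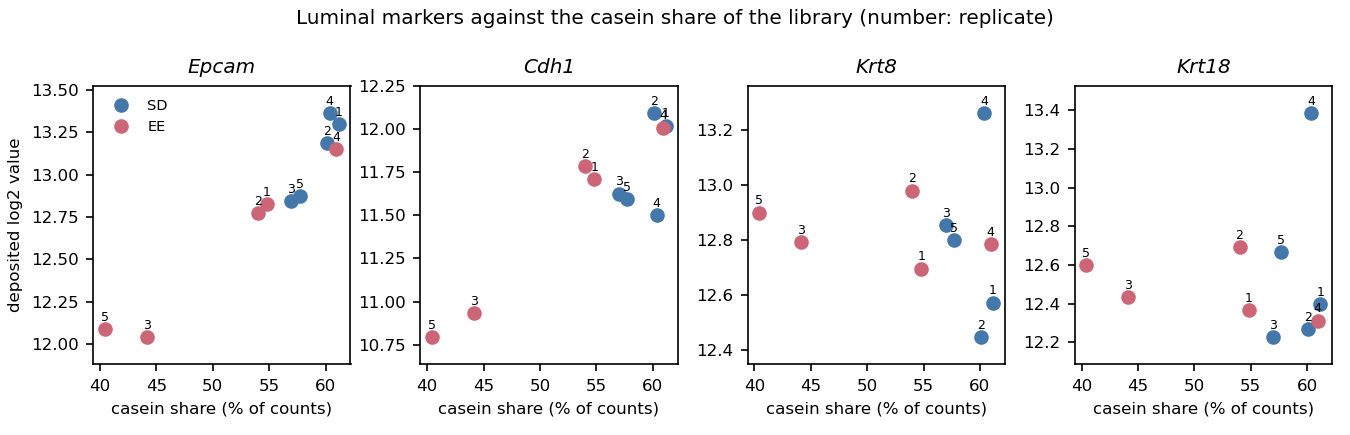
Deposited log2 value of Epcam, Cdh1, Krt8 and Krt18 (y axes) against the share of normalized counts in the 5 casein genes (x axis, percent) for SD (blue) and EE (red) libraries, numbered by replicate. Epcam is higher where the casein share is higher (r 0.97), Cdh1 is low in EE replicates 3 and 5, and r is -0.15 for Krt8 and 0.04 for Krt18.

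Genes for partners of EpCAM, proteases and their inhibitors were mostly lower in EE as well. Of 17 such genes, 16 were lower in EE and 1 was higher, where 52% of all genes were lower, and the median log2 difference was -0.27 beside -0.0087 over all genes. By the wider rule 3 were lower and 0 were higher, beside 2.56% and 1.02% of all genes, and none was called at an adjusted p under 0.05. These were Cldn7, the claudin that binds EpCAM directly (-0.70, SE 0.21), the tetraspanin Cd9 (-0.57, SE 0.22) and Cldn3 (-0.46, SE 0.20). Cldn7 had 1511, 1181, 1436, 2265 and 1073 normalized counts in SD replicates 1 to 5 and 953, 962, 621, 1259 and 645 in EE replicates 1 to 5. With the casein share as a covariate 9 of the 17 were higher and 8 lower, with a median of 0.05, and none of the 3 passed the wider rule. Spint2, a protease inhibitor with the highest mean of the list, averaged 9434 ± 2157 in SD and 7508 ± 2716 in EE libraries. Over the 9 libraries without SD replicate 4, 14 were lower and 3 higher, beside 50.3% of all genes lower. There Cldn7 (-0.54, SE 0.19), Cd9 (-0.53, SE 0.24) and Adam10, a protease (-0.46, SE 0.21), passed the wider rule, beside 3.06% of all genes lower. Cldn3 did not (-0.41, SE 0.21).

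Among the partners of E-cadherin no gene passed the wider rule. Of 17 adherens junction genes 12 were lower and 5 higher, beside 52% of all genes lower, with a median of -0.11 beside -0.0087 over all genes. Ctnna1, alpha-catenin, which links the junction to actin, averaged 10164 ± 830.4 in SD and 10075 ± 509 in EE libraries (SD, n = 5 each). Ctnnd1, p120-catenin, which keeps E-cadherin at the membrane, averaged 9112 ± 1894 and 9351 ± 819. Over those 9 libraries, Nectin4 (-0.45, SE 0.20) and the phosphatase gene Ptprf (-0.62, SE 0.24) were lower by the wider rule, beside 3.06% of all genes. Of 15 genes of epithelial-mesenchymal transition and cadherin repression, 7 were higher and 8 lower and none passed it, in either set of libraries. Of 11 desmosome and keratin linker genes, Plec (plectin, -0.50, SE 0.15) and Ppl (periplakin, -0.52, SE 0.24) were lower by the wider rule, beside 2.56% of all genes. Over the 9 libraries Plec passed it (-0.45, SE 0.15) and Ppl did not (-0.38, SE 0.23). Pkp2, a plakophilin, had an unadjusted p under 0.05 at -0.25 (SE 0.10), and Jup, plakoglobin, had the highest mean of the list, at 7454 ± 789.5 in SD and 6953 ± 1130.4 in EE libraries. Of 13 genes of filament assembly and turnover, 9 were higher and 4 lower, where 52% of all genes were lower. The filament gene Nes (nestin) alone passed the wider rule (0.88, SE 0.24, limma adjusted p = 0.506, and 0.83, SE 0.26, over the 9 libraries), beside 1.02% of all genes higher. Nes averaged 319 ± 132 in SD and 627 ± 127 in EE libraries.

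Acta2, smooth muscle alpha-actin, was the marker with the smallest p. It had 2066, 1416, 1369, 1442 and 1494 normalized counts in SD replicates 1 to 5 and 2316, 2699, 2371, 2193 and 1922 in EE replicates 1 to 5. The groups overlapped only through SD replicate 1, which lay above EE replicate 5, and all 5 EE libraries were above the SD median. The mean was 1557 ± 288 in SD and 2300.2 ± 283 in EE libraries (SD, n = 5 each). The log2 difference was 0.55 (SE 0.12, 95% confidence interval 0.28 to 0.82, limma unadjusted p = 8.4e-04, adjusted p = 0.506). The two-sided exact permutation p was 0.0159. Over the 9 libraries without SD replicate 4 it was 0.52 (SE 0.13, limma adjusted p = 0.290, exact p = 0.0238). It stayed between 0.49 and 0.65 under each of 19 alternatives, with adjusted p from 0.241 to 0.94.

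**Figure D4:**
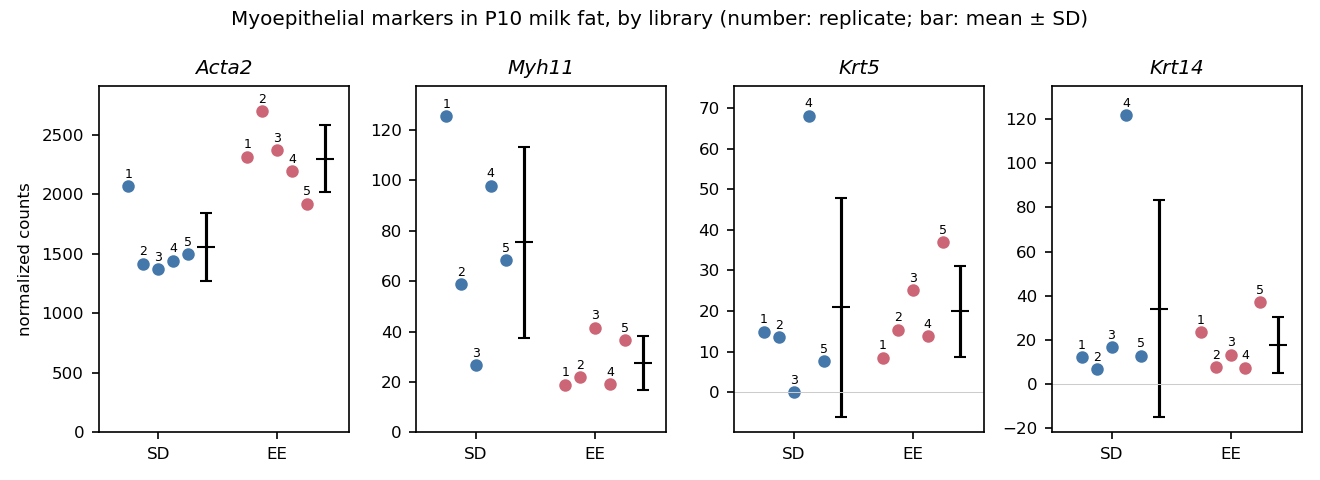
Normalized counts (y axis, a scale for each gene) of the 4 myoepithelial markers in the 5 SD (blue) and 5 EE (red) libraries, numbered by replicate, with the mean and SD of each group in black. Acta2 overlaps between groups only at SD replicate 1, Myh11 only at SD replicate 3, and SD replicate 4 lies far above the rest for Krt5 and Krt14.

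The Acta2 promoter is shown for the marker with the smallest p (chr1:241172504-241172753, minus strand, GRCr8).
Acta2: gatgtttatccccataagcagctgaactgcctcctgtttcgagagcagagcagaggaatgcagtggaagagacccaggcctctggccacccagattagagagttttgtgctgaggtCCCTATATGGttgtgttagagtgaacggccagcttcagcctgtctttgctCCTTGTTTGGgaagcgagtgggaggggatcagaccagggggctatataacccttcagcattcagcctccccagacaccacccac
The capitals here mark 2 stretches that differ by 1 base from the CArG box, the element bound by serum response factor. No exact CArG box was in the window. Stretches with at most 1 base off were found in 18.7% of RefSeq promoters of this length, and exact ones in 1.5%. The windows of Krt8, Krt18 and Epcam held 0 stretches of either kind. The Acta2 window held none of the motifs named above for Krt8, which says only that those letters are not in it.

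Acta2 followed other actin genes from library to library. Actin genes encode near-identical proteins. How reads that match several of these genes were counted is not given in the sources used here, so the Acta2 count is uncertain. Actb, the cytoplasmic beta-actin gene, had a log2 difference of 0.52 (SE 0.11, limma adjusted p = 0.417). Acta1, skeletal muscle alpha-actin, had 0.58 (SE 0.13, limma adjusted p = 0.506) and Actbl2, a beta-actin-like gene, had 0.47 (SE 0.13, limma adjusted p = 0.506). Acta2 counts were 5.56% to 6.58% of Actb counts in SD libraries and 5.58% to 6.90% in EE libraries. The coefficient of variation over the 10 libraries was 24.6% for the Acta2 count and 7.66% for its ratio to Actb. That ratio did not separate the groups, with a log2 difference of 0.05 (two-sided exact permutation p = 0.50, and 0.571 without SD replicate 4, n = 5 and n = 4 against 5). Acta1 counts were 4.58% to 5.91% of Actb in SD and 5.15% to 5.88% in EE libraries (log2 difference of the ratio 0.08, exact p = 0.286), and those of Actbl2 were 2.04% to 2.59% in SD and 2.1% to 2.67% in EE libraries (0.00035, exact p = 1). Actg2, the gamma actin of smooth muscle, was at 0.978 to 54.4 normalized counts in SD and 9.80 to 19.8 in EE libraries, a log2 difference of -0.09 (SE 0.21). Actc1, another actin gene, was at 0 in every library but EE replicate 2 (27.6). These ratios were chosen after the values were seen, and the part of shared reads in the Acta2 count was not tested.

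**Figure D5:**
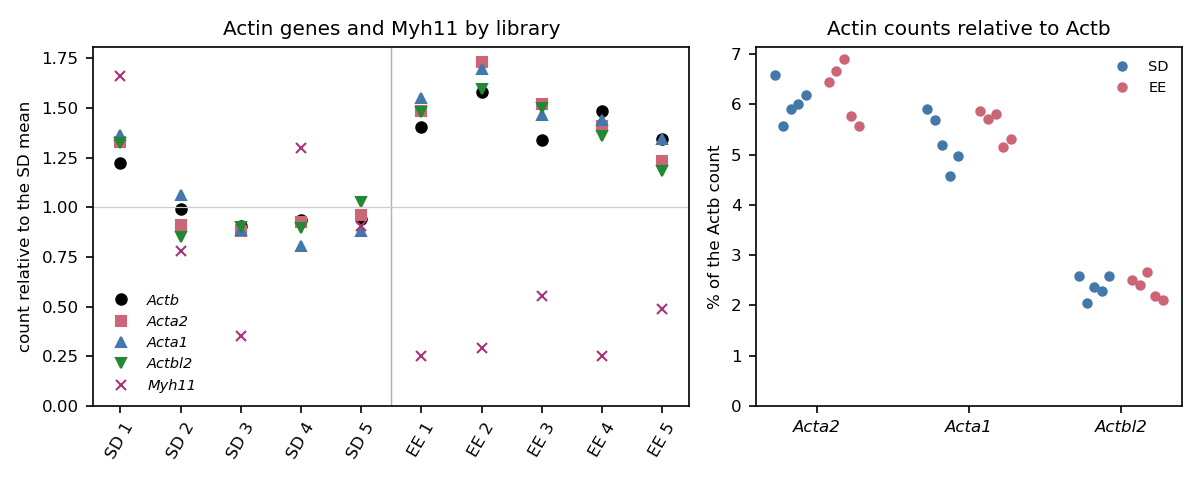
Left, count of Actb, Acta2, Acta1, Actbl2 and Myh11 in each library (x axis) relative to that gene's SD mean (y axis, from 0). Right, counts of Acta2, Acta1 and Actbl2 as a percentage of the Actb count (y axis, from 0) in SD (blue) and EE (red) libraries, replicates 1 to 5 from left to right. The 4 actin genes lie close together in every library, Myh11 does not follow them, and the ratios overlap between groups.

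Myh11, the myosin heavy chain of smooth muscle, was lower in EE libraries by the wider rule. It had 125.5, 58.9, 26.6, 98.0 and 68.3 normalized counts in SD replicates 1 to 5. In EE replicates 1 to 5 it had 18.9, 22.0, 41.6, 19.0 and 36.7. SD replicate 3 was the only SD library within the EE range and all 5 EE libraries were below the SD median. The means were 75.5 ± 37.8 in SD and 27.7 ± 10.7 in EE libraries (SD, n = 5 each). The log2 difference on the deposited scale was -0.62 (SE 0.20, 95% confidence interval -1.05 to -0.19, limma p = 0.00853, adjusted p = 0.561), and the two-sided exact permutation p was 0.0238. That scale compresses low counts, and on log2 of the count plus 1 the difference was -1.32 (SE 0.45, adjusted p = 0.590). Over the 9 libraries without SD replicate 4 it was -0.55 on the deposited scale (SE 0.21, limma adjusted p = 0.428, exact p = 0.0397). The value in each library rests on 18 to 92 estimated reads.

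Acta2 and Myh11, partners in the contractile apparatus, differed in opposite directions. The ratio of Acta2 to Myh11 counts was 14.7 to 51.4 in SD and 52.4 to 122.6 in EE libraries. It joins a marker called higher with a marker called lower, so these ranges add no support to either difference. The edges were close, at 51.4 in SD replicate 3 and 52.4 in EE replicate 5. Myh11 rests on 18 to 92 estimated reads per library, and the Acta2 count is uncertain. Over the 10 libraries their Pearson r was -0.42 (permutation p = 0.218, adjusted p = 0.218 over 4 pairs) and Spearman rho was -0.42 (permutation p = 0.232, adjusted p = 0.310). Without SD replicates 2 and 3 r was -0.64, and after subtraction of each group's mean it turned to 0.45. The libraries with the most Myh11 among SD, replicates 1 (125.5) and 4 (98.0), also had the most Tagln (transgelin, an actin-binding protein of smooth muscle), at 167 and 155 normalized counts, and SD replicate 3 had the least of both among SD libraries, with 13.0 for Tagln. Cnn1 and Myl9 were also highest among SD libraries in replicate 4 (58.4 and 50.0) and at 0 in replicate 3. Mylk and Tpm1 did not have this order. Mylk had 755 in SD replicate 1 and 225 in SD replicate 4, and Tpm1 was highest in SD replicate 3 (5309). Tagln averaged 98.99 ± 68.5 in SD and 56.5 ± 18.2 in EE libraries (log2 difference -0.30, SE 0.30, limma unadjusted p = 0.339). These genes were named after their values were seen.

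Of 29 genes of smooth muscle contraction and its serum response factor program, 11 were higher and 18 lower in EE, where 52% of all genes were lower. Their median was -0.05 beside -0.0087 over all genes. None passed the wider rule, beside 3.58% of all genes. Cald1 (caldesmon) and Actn1 (alpha-actinin) had unadjusted p under 0.05, at log2 differences of -0.36 (SE 0.12) and -0.36 (SE 0.13). Over the 9 libraries without SD replicate 4, Cald1 (-0.40, SE 0.13) passed the wider rule, beside 3.06% of all genes lower. With casein share added to the model 3 of the 29 genes were lower by it, beside 374 of 12992 genes lower. Myh9, a nonmuscle myosin, and Ppp1cb, a catalytic subunit of myosin phosphatase, which most cells express, had the highest means of the list. Myh9 averaged 15780 ± 2308 in SD and 16669 ± 719 in EE libraries, and Ppp1cb 15425 ± 2465 and 14744 ± 1239. Of 28 other myoepithelial and basal genes, 7 were higher and 21 lower, beside 52% of all genes lower, with a median of -0.14 beside -0.0087. Itga6, an integrin subunit of basal cells that other epithelial cells also express, was lower by the wider rule (-0.80, SE 0.23, and -0.88, SE 0.25, without SD replicate 4), at 11461 ± 3278 in SD and 6647 ± 2109 in EE libraries. Over all 10 libraries it was the only 1 of the 28 to pass, beside 2.56% of all genes lower. The smooth muscle and pericyte list had 8 genes with reads, of which 7 were lower, beside 52% of all genes. Over all 10 libraries Mcam alone was lower by the wider rule (-0.50, SE 0.20), beside 2.56% of all genes. It also passed without SD replicate 4 (-0.52, SE 0.22). Without SD replicate 4, Notch3 was lower by it too (-0.47, SE 0.19), beside 3.06% of all genes. Summed counts of this list were 645 to 1341 in SD and 569 to 1053 in EE libraries, with Pdgfrb, Kcnj8 and Rgs5 at 0. Most of the sum was Notch3, at 459 to 1185 in SD and 454 to 939 in EE libraries. The part of such cells in the Myh11 values was not tested.

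Krt5 and Krt14 encode the keratin pair of basal and myoepithelial cells and were near the lower end of detection. Krt5 had 14.9, 13.6, 0, 68.1 and 7.69 normalized counts in SD replicates 1 to 5 and 8.49, 15.4, 25.1, 13.8 and 37.0 in EE replicates 1 to 5. The 0 of SD replicate 3 allows up to 3.59 normalized counts (3 reads, counting error only). SD replicate 4 was highest, EE replicate 5 next, and the groups overlapped. The means were 20.9 ± 27.1 in SD and 19.9 ± 11.2 in EE libraries (SD, n = 5 each), a log2 difference of 0.14 (SE 0.25, limma adjusted p = 0.918). The SD mean without replicate 4 was 9.07 ± 6.82 (SD, n = 4) and the difference was 0.37 (SE 0.19, 95% confidence interval -0.05 to 0.79, limma adjusted p = 0.527).

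Krt14 had 12.2, 6.82, 16.7, 122 and 12.8 normalized counts in SD replicates 1 to 5. In EE replicates 1 to 5 it had 23.4, 7.69, 13.3, 7.44 and 37.0. Outside SD replicate 4 no library exceeded 37.0, and that library alone set the SD mean of 34.0 ± 49.1 (SD, n = 5), which was 12.1 ± 4.05 (SD, n = 4) without it. The EE mean was 17.8 ± 12.5 (SD, n = 5). The log2 difference was -0.17 (SE 0.28, limma adjusted p = 0.906) and turned to 0.12 (SE 0.16, limma adjusted p = 0.822) without SD replicate 4. Across the 10 libraries the pair had a Pearson r of 0.66 (permutation p = 0.0678, adjusted p = 0.0904 over 4 pairs) and a rho of 0.32 (permutation p = 0.368, adjusted p = 0.368). Without SD replicates 3 and 4 r was 0.48, and without SD replicate 4 alone it was 0.19.

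SD replicate 4 was the highest of the 10 libraries for 6 of the 9 markers, namely Krt8, Krt18, Krt19, Epcam, Krt5 and Krt14, and so for all 5 keratins. It also had the highest sum of the skin keratinocyte genes (265 normalized counts, beside 90.3 to 116 in the other SD libraries and 109 to 169 in EE libraries) and of the fibroblast genes (10622, of which 10443 were Fbln1, beside 953 to 3989 and 717 to 1312). In the skin list 5 of 16 genes had reads, led by Krt10 (213 in SD replicate 4), and Krt1, Krt2, Krt77 and Ivl were at 0 there too. The part of skin cells in the keratin values was not tested.

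Most genes of the keratin family were sparse in milk fat, while Krt8, Krt18 and Krt19 were not. Of the 45 keratin genes listed, 20 were at 0 in all 10 libraries and 9 averaged at least 20 normalized counts, which were Krt8, Krt18, Krt19, Krt10, Krt17, Krt23, Krt14, Krt15 and Krt5. Krt15 and Krt17, keratins of basal and stressed epithelium, averaged 34.8 ± 26.1 and 54.5 ± 29.9 in SD and 14.7 ± 10.1 and 47.3 ± 23.4 in EE libraries (SD, n = 5 each). Of the 25 that varied, 14 were higher and 11 lower in EE and none passed the wider rule, beside 3.58% of all genes. Krt73, a keratin of the hair follicle, had the only unadjusted p under 0.05, with 0 reads in all 5 EE libraries and 0 to 3.86 normalized counts in SD libraries.

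The other 23 luminal genes were lower in EE in 16 cases and higher in 7, where 52% of all genes were lower. Their median was -0.17 beside -0.0087 over all genes. Cd24 and Elf5, a surface protein of luminal cells and the transcription factor of secretory alveoli, had the highest means, at 74764 ± 13589 and 53534 ± 7665 in SD and 66294 ± 7881 and 54879 ± 2014 in EE libraries. By the wider rule 4 were lower and 0 higher, beside 2.56% and 1.02% of all genes. They were Cldn7 and Cldn3, named above, Muc1, the mucin of the apical membrane (-0.69, SE 0.27), and Prlr, the prolactin receptor (-0.61, SE 0.21). Leaving out SD replicate 4, Prlr passed it (-0.71) and Muc1 did not (-0.63, SE 0.30). Muc1 had 9734, 8213, 5509, 8726 and 5901 normalized counts in SD and 5274, 3068, 4643, 8925 and 2956 in EE replicates 1 to 5, with EE replicates 5 and 2 lowest. With the casein share as a covariate none of the 4 passed the wider rule, beside 5% of all genes. Cldn7 (-0.54, SE 0.19) and Prlr (-0.71, SE 0.22) passed it over the 9 libraries without SD replicate 4, beside 3.06% of all genes lower.

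The genes most like each marker over the 10 libraries were taken by Pearson r of log2 values among 9576 genes with a mean of at least 20 normalized counts, as a description of shared libraries. For Epcam they were Cd82 (r 0.98) and Wfdc3 (0.98), and for Cdh1 they were Lman1 (0.99) and Scamp2 (0.99), a cargo receptor of the secretory pathway and a secretory carrier membrane protein. For Acta2 they were Actbl2 (0.99) and Actb (0.96). For Krt8 they were Tm6sf1 (0.94) and Ier5l (0.93), and for Krt18 they were Ssbp1 (0.96) and Dnajc17 (0.95). For Krt19 they were RGD1311703 (0.94) and Mrps9 (0.93), and for Myh11 they were Mtmr14 (0.94) and Il15 (0.94). For the sparse basal keratins they were Etfa (0.93) and Med9 (0.93) with Krt5, and LOC102550396 (0.95) and Svip (0.95) with Krt14. Without SD replicate 4, r fell for Krt14 to 0.76 and 0.69 and for Krt18 to 0.81 and 0.89. It changed least for Cdh1 (0.99 and 0.99), Acta2 (0.99 and 0.95) and Epcam (0.99 and 0.98).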

How the data were processed

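RNA of the milk fat layer of 5 SD and 5 EE dams was sequenced by the authors from stranded mRNA libraries as single-end 100 bp reads, aligned to rn6 and analysed with DESeq2. The read counter and its rule for reads matching several genes are not given in the sources used here. The deposited log2 values, described by the authors as rlog, share a lowest value of 5.4605 and follow the variance-stabilizing transformation of DESeq2, which was inverted to normalized counts. Over 1354 genes the mean normalized signal (baseMean) deposited by the authors matched 9 libraries without SD replicate 4 (SD of the log2 ratio 0.022, and 0.0807 with all 10). The authors' comparison table also holds fold changes and p-values, which were not used.

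Members and gene lists were chosen with earlier results of these data known. The difference between EE and SD was fitted with limma 3.58.1 under R 4.3.3 (lmFit, eBayes with trend, two-sided, Benjamini-Hochberg) over the 12992 genes that varied, 12955 without SD replicate 4. Exact permutation tests covered all arrangements of 5 against 5 or 4 against 5 libraries, and correlations used 100000 permutations. The rule for named genes took all members and, from each list, up to 4 with an unadjusted p under 0.05 and the 1 or 2 of highest mean. Lists of other cell types were to be given by counts, sums and markers at 0, and genes named from them were chosen after their values were seen. Depth came from the smallest step between normalized counts, and 90.3% to 98.2% of values under 10 reads were whole within 0.1. The limma step was tested on simulated data with known changes. Promoters are from RefSeq GRCr8, which held 5 of the 9 members. Alternatives were filters, scaling, moderation, weights, replicate block, casein covariate and left-out libraries. No label says which dams shared a cage, so p-values reflect only the spread between libraries.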

Additional observations from a re-analysis of the deposited data

Results flagged for a closer look

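In the 20 sets of 5 libraries checked (9 markers and the casein share in 2 groups), 2 held a library whose gap to its nearest neighbour exceeded the 95% critical share of the range (0.71), and chance gives about 1 in 20. For Krt14, SD replicate 4 stood at a log2 value of 7.644, with 0.809 of the group's range as the gap below it. For Acta2, SD replicate 1 stood at a log2 value of 11.07, with a gap of 0.788 of the range, and it is the library through which the groups overlapped. Without SD replicate 1 the Acta2 difference was 0.65 (SE 0.10, limma adjusted p = 0.250).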

How the results depend on the processing

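Of 19 alternatives for each marker, all 19 kept the sign of the Acta2 (0.49 to 0.65), Myh11 (-1.32 to -0.49), Epcam (-0.68 to -0.03) and Krt19 (-0.89 to -0.02) differences, and no marker passed the adjusted threshold in any. Signs turned for small differences. With libraries left out in turn the log2 difference of Krt8 ranged from -0.04 to 0.16 (-0.0107 without SD replicate 1 and -0.0421 without SD replicate 2), Krt18 from -0.20 to 0.0906 (without SD replicate 4), Krt5 from -0.0567 (without SD replicate 3) to 0.37 and Krt14 from -0.29 to 0.12. With array weights Krt18 was at 0.0061 and Krt14 at 0.0273. Cdh1 was at 0.22 with the casein share as a covariate and at 0.0678 without EE replicates 3 and 5, an alternative added after seeing the data, in which Krt5 was at -0.0275. The r of Acta2 and Myh11 turned to 0.45 after subtraction of group means, and that of Epcam and Cdh1 was 0.32 and 0.97 as given above. Under the wider rule 2 or 3 markers passed throughout. Epcam did not pass with array weights, with the casein covariate, or without SD replicate 1 (log2 difference -0.49), SD replicate 4 (-0.48), EE replicate 3 (-0.40), EE replicate 5 (-0.42) or both of the latter (-0.20). Over all genes, 1 passed the adjusted threshold under quantile normalization, and 0 to 1 with a library left out. Genes higher by the wider rule numbered 133, with 209 under quantile normalization, 233 on log2 of the count plus 1, 276 with the casein covariate and 123 to 197 with a library left out. Genes lower numbered 332, with 215 (without EE replicate 3) to 530 (without EE replicate 4) with a library left out. The causes were not tested.

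Same-numbered SD and EE libraries shared little of their deviation over 9576 genes (r of 0.10, 0.07, -0.09, 0.05 and 0.30 for replicates 1 to 5). Only replicate 5 was most like its own number. This cannot tell whether the numbers pair libraries for single genes. Epcam had the same order of replicates in both groups, from highest to lowest 4, 1, 2, 5 and 3. With the replicate block 3 markers passed the wider rule and 0 the adjusted threshold (limma, 3 at an unadjusted p under 0.05). The block moved the SE of Epcam from 0.21 to 0.11 (limma unadjusted p = 9.5e-04, adjusted p = 0.416). Depth limits Krt5, Krt14 and Myh11 most, at under 100 estimated reads per library.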
